A study of Mus musculus with 16 samples.

Results

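Histone genes were described in RNA from mouse primary aortic smooth muscle cells (SMCs), by taking from the gene table each row whose symbol belongs to the H1f, H2ac, H2bc, H2ax, H2az, H3c, H3f3, H4c or Macroh2a series. The rule found 55 genes of 20581 in the table. Of these, 44 were placed in a replication-dependent class (H1f1 to H1f6 and the H2ac, H2bc, H3c and H4c genes) and 11 in a class of replacement variants (H1f0, H1f10, H2ax, the H2az, H3f3 and Macroh2a genes). The second class includes an antisense transcript, H3f3aos, and a pseudogene, H3f3a-ps2. The SMCs came from male C57BL/6J mice, and each of the 4 groups had 4 libraries. KO cells came from RBC.ARG1-KO mice, in which an EpoR-Cre transgene is combined with floxed Arg1 alleles, so that Arg1 (arginase 1) is deleted in the red blood cell lineage only, and WT cells came from RBC.ARG1-WT littermates. DIAM is a foam cell medium, in which cells spent 10 days with 3 additions to DMEM: insulin at 1 µM, dexamethasone at 0.1 µM and L-ascorbic acid at 50 µg/mL. The cells of the DMEM groups stayed in DMEM with 10% fetal bovine serum. The sources used here do not say whether DIAM contained serum. They call the 4 libraries biological replicates without naming separate mice, so that the p-values measure the spread between these libraries.

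Nucleosomes wrap DNA around an octamer of the core histones H2A, H2B, H3 and H4, and linker histone H1 binds where the DNA enters and leaves. Replication-dependent histone genes lie in clusters, have no introns as a rule and are transcribed mainly in S phase. Their mRNAs normally end a few bases after a conserved stem-loop in place of a poly(A) tail, and the stem-loop binding protein SLBP governs their processing, translation and decay. Replacement variants are expressed through the cell cycle from single genes with polyadenylated mRNAs and supply histones outside replication. Some cluster genes can also give polyadenylated mRNAs that run past the stem-loop, as has been described in differentiated cells.

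The estimated counts summed to between 37221192 and 47626331 per library. Levels are given as CPM, counts brought to a common library total and scaled by the TMM factors of edgeR (0.9721 to 1.0455), and 14217 genes with at least 1 CPM in at least 4 libraries were tested. Arg1 was below this filter, with 1 to 4 counts per library in KO cells in DIAM, 0 to 9 in WT cells in DIAM, 2 to 49 in KO cells in DMEM and 3 to 4 in WT cells in DMEM. The deletion is in another cell lineage, so these counts do not check the genotype labels. Of 8 smooth muscle markers, 4 were lower and 2 higher in DIAM in KO cells, and 4 were lower and 1 higher in WT cells. These are 75% of the list in KO cells and 62.5% in WT cells. Over all genes tested, 60.7% differed between media in KO cells (30.8% lower in DIAM) and 55.1% in WT cells (27.5% lower). Each marker count below stands beside these shares. Acta2, Tagln, Cnn1 and Smtn were lower in both genotypes, Myocd was higher in both (log2 fold change 2.22 in KO cells and 1.36 in WT cells), and Lmod1 was higher in KO cells (0.54). Acta2, the most abundant, was at 845 ± 227 CPM in KO cells in DIAM against 1799 ± 541 CPM in KO cells in DMEM and at 772 ± 167 CPM in WT cells in DIAM against 1960 ± 247 CPM in WT cells in DMEM (SD, n = 4 each). The summed level of the 8 markers was 1139 to 2094 CPM in KO cells in DIAM against 2292 to 3995 CPM in KO cells in DMEM, and 1048 to 1713 CPM in WT cells in DIAM against 2927 to 3779 CPM in WT cells in DMEM. The 5 adipocyte markers in the table (Lep was not among the rows) were higher in DIAM in both genotypes, with sums of 1954 to 2910 CPM in KO cells in DIAM against 65.2 to 110.4 CPM in KO cells in DMEM, and of 1341 to 2089 CPM in WT cells in DIAM against 85.9 to 106.7 CPM in WT cells in DMEM. Of 6 fibroblast markers, 4 were higher and 2 lower in DIAM in both genotypes, and their sum, in which Col1a1 weighs most, was 3044 to 4802 CPM in KO cells in DIAM against 7895 to 11866 CPM in KO cells in DMEM, and 4892 to 7699 CPM in WT cells in DIAM against 9599 to 11012 CPM in WT cells in DMEM. The summed level of 4 Schwann cell markers was 11.7 to 42.3 CPM in KO cells in DIAM against 12.4 to 37.0 CPM in KO cells in DMEM, and 67.2 to 167 CPM in WT cells in DIAM against 14.9 to 30.8 CPM in WT cells in DMEM. Of the 3 Schwann cell markers tested, 0 were higher and 1 lower in KO cells, and 2 were higher and 1 lower in WT cells. Endothelial markers gave 3 higher and 2 lower of 6 in KO cells and 2 higher and 1 lower in WT cells, macrophage markers gave 1 higher and 2 lower of 6 in KO cells and 2 higher and 0 lower in WT cells, and the 1 erythroid marker tested was higher in both. As shares, 83.3% of endothelial and 50% of macrophage markers differed in KO cells, and 50% and 33.3% in WT cells. These marker changes accompany each difference between media given here, and their part in it was not tested. In bulk RNA, fewer cells of a type and less RNA per cell cannot be told apart.

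The replication-dependent genes were found on chromosome 13 (37 genes), chromosome 3 (6 genes) and chromosome 11 (1 gene) in the GENCODE vM21 annotation of mouse build GRCm38, to which all 55 genes were matched by Ensembl identifier. The files are on GRCm39, and no coordinates are carried over. The annotated transcripts were searched on their own strand for the histone stem-loop, 16 bases that read GG, 3 bases of any kind, TT, any base, T, any base, A, 3 bases of any kind and CC, with the first 6 bases complementary to the last 6. It was found in 34 of the 44 replication-dependent genes and in 1 of the 11 replacement variants, H2ax, against 90 of 58797 protein-coding transcripts (0.153%). The letters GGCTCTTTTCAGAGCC were the most frequent form, in 19 genes. Each sequence below is shown with 5 bases before and 9 after the stem-loop, which is in capitals, and the genes were chosen because they were the most abundant (H1f2), have values described by medium (H2ac25, H4c8, H3c2) or are outside the class (H2ax).
H1f2: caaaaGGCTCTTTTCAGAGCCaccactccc
H2ac25: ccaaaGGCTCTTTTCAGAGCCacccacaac
H4c8: ccaaaGGCCCTTTTCAGGGCCgcccacatt
H3c2: ccaaaGGCTCTTTTCAGAGCCacccacagt
H2ax: acaaaGGCCCTTTTAAGGGCCaccacctcc

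H1f2, H2ac25 and H3c2 shared the same 16 letters, while H4c8 had a form found in 5 genes and H2ax a form found in 1. The annotated transcripts differ in where they end. In 15 replication-dependent genes, among them H4c8, H3c2, H2ac18 and H2ac19, the longest coding transcript with the stem-loop ended within 100 bases of it. In 19 genes it ran further, by 840 bases in H1f2, 1643 in H2ac25, 1861 in H2bc6, 1153 in H1f4 and 377 in H3c15, and in the remaining 10 genes, which include H2bc4, H2bc21, H2bc23 and H2bc24, the letters were not in the annotated transcript. In H2ax the transcript ran 822 bases past them.

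Replication-dependent transcripts were a small and uneven part of these libraries. Both classes together took 0.106% to 0.147% of the counts of a library. Of the 44 replication-dependent genes, 21 passed the filter, and the 23 others summed to no more than 5.8 CPM in any library. H1f2, a linker histone gene, averaged 251 CPM over the 16 libraries and H2bc4, an H2B gene, 125 CPM, and both together held 78.6% to 82.3% of the class in each library. The next were H2ac18 at 23.2 CPM, H2ac25 at 11.8, H3c15 at 10.5, H2ac19 at 6.08, H2bc6 at 5.61, H4c8 at 4.98, H1f4 at 4.95, H4c9 at 4.68, H4c17 at 3.23 and H1f3 at 3.0 CPM. The median over the tested genes was 3.23 CPM in the replication-dependent class and 57.0 CPM in the replacement class, against 21.2 CPM over all genes tested.

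**Figure D1:**
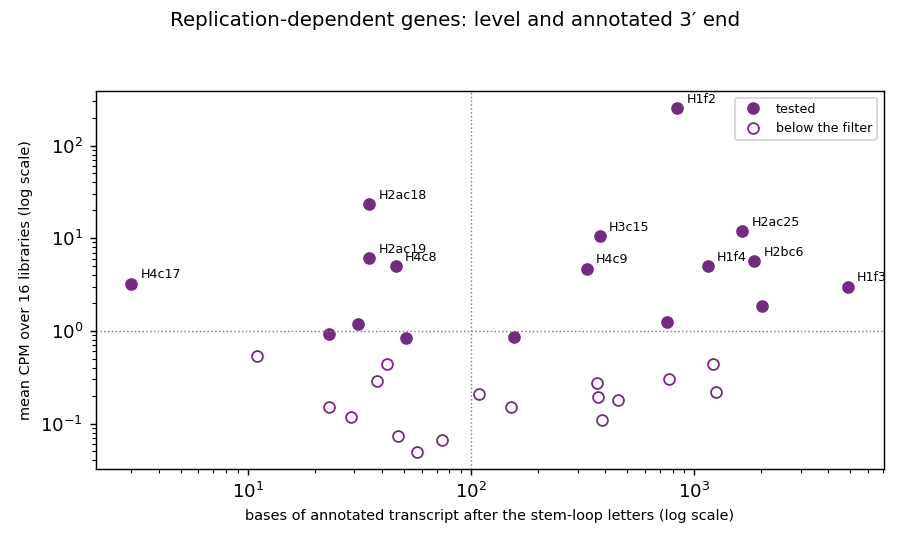
Mean level over 16 libraries (CPM, log scale) against the bases of annotated transcript after the stem-loop (log scale) for the 34 replication-dependent genes with the stem-loop letters. Filled points passed the filter, open points did not, and dotted lines mark 1 CPM and 100 bases. H1f2 stands apart at 251 CPM and 840 bases.

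Genes whose annotated transcript ran over 100 bases past the stem-loop (19 genes, of which 10 were tested) held 63.4% of the summed level of the class. Those that ended within 100 bases (15 genes, 7 tested) held 8.98%, and those without the letters (10 genes, 4 tested) held 27.6%. These shares are of CPM not scaled to transcript length. A longer transcript gives more reads per molecule, so that the shares overstate the long transcripts as numbers of molecules. The share of the long transcripts rests mainly on H1f2 and the share without the letters mainly on H2bc4. Per kilobase of the longest annotated coding transcript, H1f2 was at 161 CPM and H2bc4 at 108 CPM. By the same measure the replacement variants H3f3b, H3f3a, H2az1 and H1f0 were at 90.8, 88.4, 65.5 and 62.2, while H2ac18 was at 39.6 and H2ac25 at 5.50. H1f2 and H2bc4 have 1 annotated transcript each, H3f3a and H2az1 have 7 and H3f3b has 4. A shorter transcript would give these variants higher values, so the order of the genes is not settled. These are levels and not differences between groups. The labels name an mRNA library kit together with depletion of ribosomal RNA, and how transcripts without a poly(A) tail were recovered was not tested.

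The question set by the design was how medium and genotype change expression. In KO cells, 7 of the 9 replacement variants tested differed between DIAM and DMEM, 6 lower and 1 higher in DIAM, with a median log2 fold change of -0.39. In the same cells, 6 of the 21 replication-dependent genes tested differed, 2 higher and 4 lower, with a median of 0.03. Over all genes tested, 60.7% differed in KO cells (29.8% higher and 30.8% lower in DIAM), with a median of -0.02 (edgeR quasi-likelihood test, Benjamini-Hochberg adjusted p under 0.05). As shares, 77.8% of the replacement variants and 28.6% of the replication-dependent genes were called in KO cells, and the difference between the classes was not tested. In WT cells, 4 of 9 replacement variants differed, all lower in DIAM with a class median of -0.17, and 7 of 21 replication-dependent genes differed, 4 higher and 3 lower with a median of 0.01, against 55.1% of all genes (27.6% higher, 27.5% lower, median -0.01). These shares, 44.4% and 33.3%, were both below that of all genes. In KO cells, media groups did not overlap for 7 of 9 replacement variants and 4 of 21 replication-dependent genes, beside 55.1% of all genes. In WT cells they did not overlap for 4 of 9 and 6 of 21, beside 49% of all genes. The replication-dependent genes so counted include H2bc24, and in KO cells H3c2. The tested replication-dependent genes had lower levels than the replacement variants, and the part of level in these shares was not tested. H2bc24 reached 1 CPM in DMEM libraries alone (5 libraries) and H3c2 in DIAM libraries alone (6 libraries), so that they entered the test through the medium in which they are high. Without them, a count added after the data were seen, 4 of 19 replication-dependent genes were called in KO cells (1 higher and 3 lower) and 5 of 19 in WT cells (3 higher and 2 lower). Among the genes kept, H2bc11 reached 1 CPM in 4 DMEM libraries and 1 DIAM library, and H2bc23 in 3 DMEM and 5 DIAM libraries. The calls of these genes, H2bc11 in KO cells and H2bc23 in WT cells, are thus not independent of the filter either. Without library 2 of the WT cells in DIAM, 6 of 9 replacement variants and 4 of 21 replication-dependent genes were called in WT cells, and without library 2 of the WT cells in DMEM, 3 of 21 replication-dependent genes were.

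**Figure D2:**
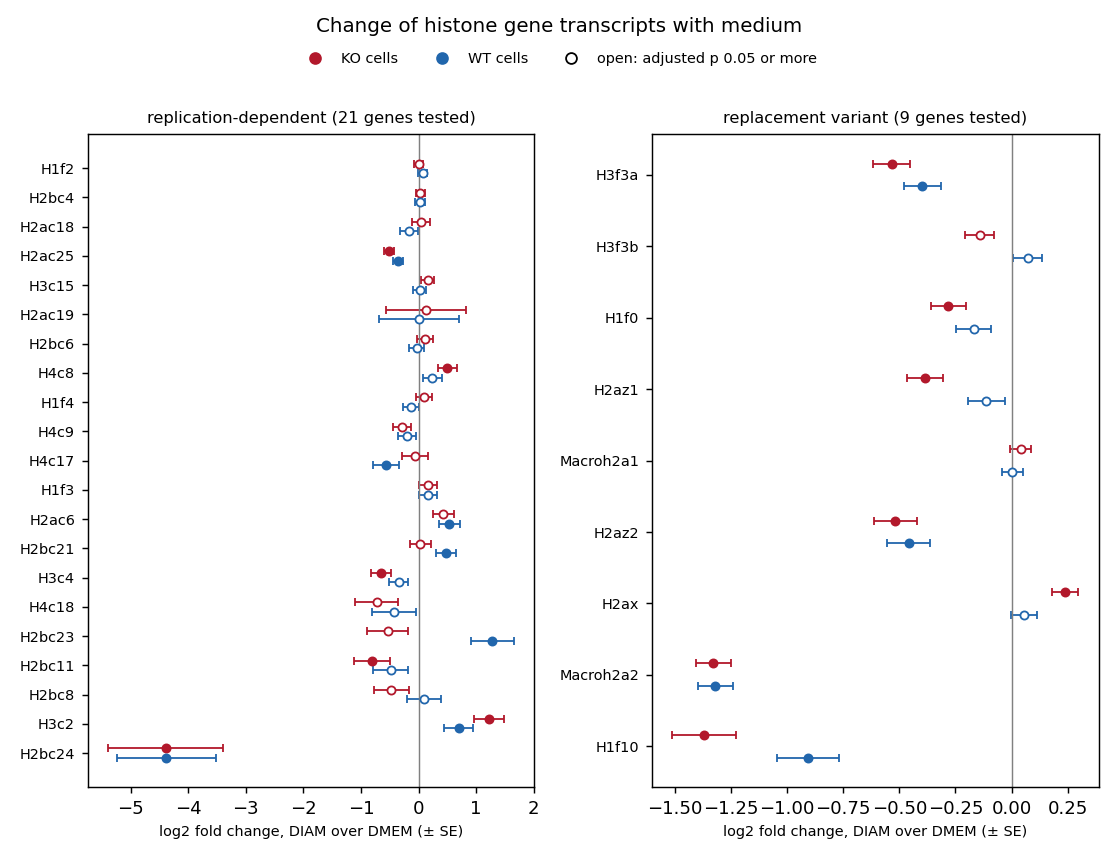
Log2 fold change of DIAM over DMEM, with its SE, for the 21 replication-dependent genes (left) and 9 replacement variants (right) that were tested, in KO cells (red) and WT cells (blue). Filled points have an adjusted p under 0.05, which for H2bc24 and H3c2 follows their selection by the filter, and the axes differ between panels. For H2bc11 the filter was met mostly through DMEM libraries. Macroh2a2 and H1f10 lie to the left of the other variants in both genotypes, while H1f2 and H2bc4 lie near 0.

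Summed over all 44 genes, replication-dependent transcripts were at 469, 440, 431 and 481 CPM in the KO libraries in DIAM and at 499, 434, 477 and 406 CPM in the KO libraries in DMEM. In WT cells they were at 480, 482, 495 and 500 CPM in DIAM and at 519, 461, 451 and 490 CPM in DMEM. The groups overlapped in both genotypes, and the log2 ratio of the group means was 0.00 in KO cells and 0.03 in WT cells. The replacement variants summed to 660, 677, 662 and 727 CPM in the KO libraries in DIAM and to 873, 831, 846 and 853 CPM in the KO libraries in DMEM. These groups did not overlap, with a log2 ratio of -0.32. In WT cells the replacement variants summed to 736, 849, 713 and 766 CPM in DIAM against 933, 860, 821 and 845 CPM in DMEM, where library 2 in DIAM reached into the DMEM range and the log2 ratio was -0.17. The ratio of replication-dependent to replacement counts was therefore 0.650 to 0.711 in KO cells in DIAM against 0.476 to 0.572 in KO cells in DMEM, and 0.567 to 0.694 in WT cells in DIAM against 0.536 to 0.580 in WT cells in DMEM. No test was made of these sums.

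**Figure D3:**
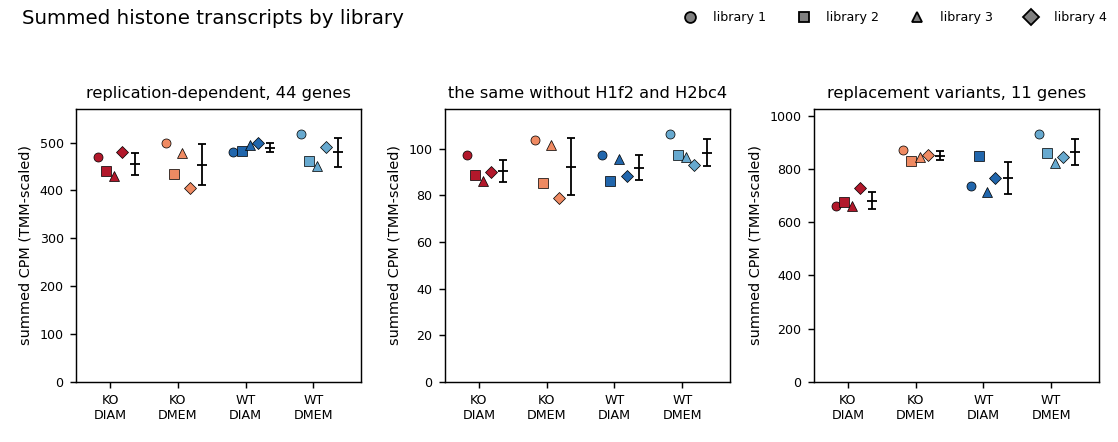
Summed CPM in each of the 16 libraries for the replication-dependent genes, for the same genes without H1f2 and H2bc4, and for the replacement variants. Symbols mark the library number, and bars give the mean and SD of 4 libraries. The replacement sums of KO cells in DIAM, 660 to 727 CPM, lie below those of KO cells in DMEM, while the replication-dependent sums overlap.

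Among the replacement variants, Macroh2a2 changed by the same size in both genotypes. It encodes a macroH2A, a histone H2A with a large additional macro domain. Its level was 6.98, 7.39, 7.12 and 7.25 CPM in the KO libraries in DIAM against 17.1, 16, 18.9 and 20.3 CPM in the KO libraries in DMEM. In WT cells it was 6.87, 7.01, 6.93 and 7.85 CPM in DIAM against 16.9, 18.3, 18.8 and 17.5 CPM in DMEM. Every DIAM library was below every DMEM library, with a log2 fold change of -1.33 ± 0.08 (SE) in KO cells (adjusted p = 6.7e-10) and -1.32 ± 0.08 in WT cells (adjusted p = 8.9e-10, edgeR). Its paralog Macroh2a1 was at 57.5 ± 0.51 CPM in KO cells in DIAM against 55.9 ± 2.37 CPM in KO cells in DMEM, and at 57.3 ± 3.14 CPM in WT cells in DIAM against 57.1 ± 1.47 CPM in WT cells in DMEM (SD, n = 4 each), and it did not pass the test in either genotype (edgeR adjusted p = 0.46 in KO cells and 0.95 in WT cells).

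The replication-independent linker histone genes were lower in DIAM where they passed the test. H1f10 had 1.16, 1.41, 1.34 and 1.38 CPM in the KO libraries in DIAM against 3.33, 3.67, 3.17 and 3.52 CPM in the KO libraries in DMEM. In WT cells it had 1.81, 1.61, 1.64 and 1.88 CPM in DIAM against 3.15, 3.64, 3.68 and 2.52 CPM in DMEM. The groups did not overlap, and the log2 fold change was -1.37 ± 0.14 in KO cells and -0.91 ± 0.14 in WT cells (edgeR adjusted p = 5.0e-07 and 4.5e-05). The difference between these changes did not pass the test (interaction -0.46 ± 0.20, edgeR adjusted p = 0.28). H1f0, a linker histone known to build up in cells that have stopped dividing, was at 106, 115, 109 and 118 CPM in the KO libraries in DIAM against 130, 134, 141 and 140 CPM in the KO libraries in DMEM. It fell by 0.28 ± 0.08 on the log2 scale in KO cells (edgeR adjusted p = 0.0046). In WT cells it was at 116, 147, 107 and 125 CPM in DIAM against 146, 138, 131 and 142 CPM in DMEM, a log2 fold change of -0.17 ± 0.08 that did not pass (edgeR adjusted p = 0.070). Library 2 of the WT cells in DIAM was the highest of all 16 libraries for H1f0. Without that library the log2 fold change was -0.26 and without library 3 of the WT cells in DMEM it was -0.21, and both values passed (edgeR adjusted p = 0.0016 and 0.042).

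H3f3a and H3f3b encode the same protein, histone H3.3. Between media H3f3a passed the test and H3f3b did not, and the difference between the genes was not tested. H3f3a was at 197, 200, 196 and 205 CPM in the KO libraries in DIAM against 310, 270, 289 and 288 CPM in the KO libraries in DMEM. WT cells had it at 221, 258, 201 and 211 CPM in DIAM against 339, 299, 265 and 270 CPM in DMEM. The groups did not overlap in either genotype, with log2 fold changes of -0.53 ± 0.08 in KO cells and -0.40 ± 0.08 in WT cells (edgeR adjusted p = 3.2e-05 and 0.00062). H3f3b was at 194, 199, 195 and 239 CPM in the KO libraries in DIAM against 233, 227, 228 and 227 CPM in the KO libraries in DMEM, and at 230, 256, 234 and 257 CPM in the WT libraries in DIAM against 240, 220, 233 and 238 CPM in the WT libraries in DMEM. Library 4 of the KO cells in DIAM stood above the other 3, the groups overlapped, and neither difference passed the test (log2 fold change -0.14 ± 0.06 in KO cells, edgeR adjusted p = 0.063, and 0.07 ± 0.06 in WT cells, edgeR adjusted p = 0.36). Without library 4 of the KO cells in DIAM the value in KO cells was -0.22 and passed (edgeR adjusted p = 0.0017). H3f3b also passed in KO cells with a filter at 5 CPM or a replicate block (edgeR adjusted p = 0.037 and 0.042). Quantile normalization gave a pass there too (limma adjusted p = 0.0025). The summed level of the 4 replacement H3 rows was 392 to 445 CPM in KO cells in DIAM against 497 to 543 CPM in KO cells in DMEM, and at 436 to 515 CPM in WT cells in DIAM against 498 to 579 CPM in WT cells in DMEM, with overlap in WT cells alone.

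H2az1 and H2az2 encode the H2A.Z variants found around transcription start sites. H2az2 was at 18.4, 18.7, 20 and 18.1 CPM in the KO libraries in DIAM against 30.5, 25.2, 24.4 and 27.6 CPM in the KO libraries in DMEM. The WT libraries gave 18.8, 22.4, 18.2 and 19 CPM in DIAM against 30.5, 28.4, 26.5 and 22.4 CPM in DMEM, so that library 2 in DIAM nearly met library 4 in DMEM. The log2 fold change was -0.52 ± 0.10 in KO cells and -0.46 ± 0.10 in WT cells (edgeR adjusted p = 2.0e-04 and 6.8e-04). H2az1 was at 57.4, 59.2, 55.9 and 58.2 CPM in the KO libraries in DIAM against 78.3, 79.1, 70.5 and 73.7 CPM in the KO libraries in DMEM, with no overlap and a log2 fold change of -0.39 ± 0.08 (edgeR adjusted p = 6.6e-04). In WT cells it was at 67.1, 83.5, 62.8 and 69.0 CPM in DIAM against 85.7, 76.7, 67.6 and 75.4 CPM in DMEM. That difference, -0.11 ± 0.08, did not pass (edgeR adjusted p = 0.26), and library 2 in DIAM was above 3 of the 4 DMEM libraries. Without library 2 it was -0.20 and passed (edgeR adjusted p = 0.027). In the annotation, H2az1 shares 42.3% of its 31-base words with other genes, H3f3a 30.0%, Macroh2a2 25.3% and H3f3b 11.2%, so that part of their reads could have been divided with those genes.

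H2ax, the H2A variant that is phosphorylated beside DNA breaks and the replacement gene with a stem-loop, moved the other way in KO cells. It was at 20.6, 17.9, 19 and 20.7 CPM in the KO libraries in DIAM against 16.7, 17, 16 and 16.5 CPM in the KO libraries in DMEM, a log2 fold change of 0.24 ± 0.06 without overlap (edgeR adjusted p = 0.0027). WT cells had it at 18.1, 18.3, 18.5 and 18 CPM in DIAM against 16.4, 18.9, 17.3 and 17.5 CPM in DMEM, where the groups overlapped and the test was not passed (0.06 ± 0.06, edgeR adjusted p = 0.45). The interaction of genotype and medium did not pass either (0.18 ± 0.08, edgeR adjusted p = 0.31).

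**Figure D4:**
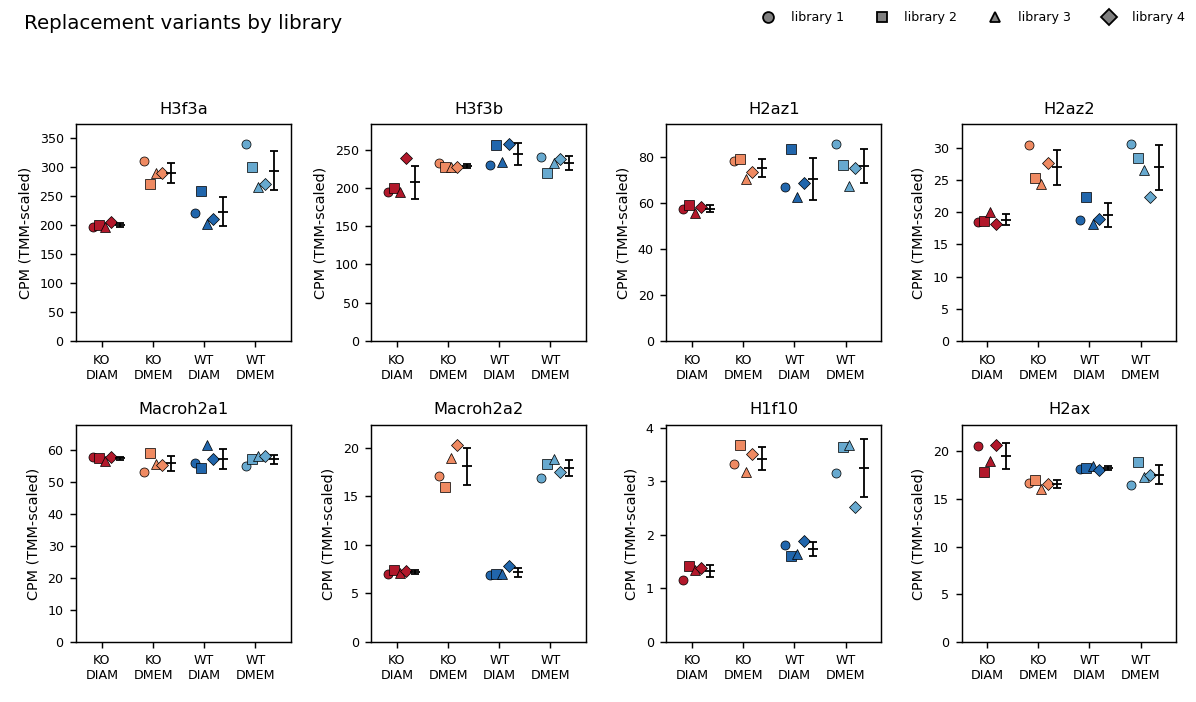
CPM of 8 replacement variants in each library by group. Symbols mark the library number, and bars give the mean and SD of 4 libraries. Macroh2a2 is at 6.87 to 7.85 CPM in DIAM and at 16 to 20.3 CPM in DMEM, while Macroh2a1 is level, and H2az1 and H3f3b are lowest in KO cells in DIAM.

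In the replication-dependent class, the abundant linker histone gene H1f2 was at 240, 226, 226 and 273 CPM in the KO libraries in DIAM against 259, 235, 248 and 221 CPM in the KO libraries in DMEM. The WT libraries gave 252, 261, 268 and 291 CPM in DIAM against 266, 238, 239 and 277 CPM in DMEM. The groups overlapped, and the log2 fold changes were 0.00 ± 0.07 in KO cells and 0.07 ± 0.07 in WT cells (edgeR adjusted p = 0.98 and 0.43). The other linker genes of the class also did not pass the test. H1f4 averaged 4.75 ± 0.35 CPM in KO cells in DIAM against 4.46 ± 0.87 CPM in KO cells in DMEM, and 5.07 ± 0.72 CPM in WT cells in DIAM against 5.52 ± 0.41 CPM in WT cells in DMEM. H1f3 averaged 2.95 ± 0.55 CPM in KO cells in DIAM against 2.63 ± 0.48 CPM in KO cells in DMEM, and 3.4 ± 0.24 CPM in WT cells in DIAM against 3.02 ± 0.24 CPM in WT cells in DMEM (SD, n = 4 each).

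Of the H2A genes, H2ac25 passed the test in both genotypes. It was at 9.05, 8.29, 8.93 and 10.4 CPM in the KO libraries in DIAM against 13.6, 12.4, 13.7 and 12.8 CPM in the KO libraries in DMEM. In WT cells it was at 10.8, 12.8, 9.81 and 10.3 CPM in DIAM against 13.9, 13.9, 13.9 and 14.5 CPM in DMEM. Every DIAM library was below every DMEM library of its genotype, with log2 fold changes of -0.52 ± 0.09 in KO cells and -0.36 ± 0.09 in WT cells (edgeR adjusted p = 8.3e-05 and 0.0020). H2ac25 is the replication-dependent gene on chromosome 11, and its annotated transcript shares 32.1% of its 31-base words with Trim17, so that reads of the overlap could be assigned to either. H2ac6 was higher in DIAM in WT cells, at 2.22, 2.68, 2.34 and 2.04 CPM in DIAM against 2.01, 1.45, 1.59 and 1.34 CPM in DMEM, a log2 fold change of 0.54 ± 0.18 (edgeR adjusted p = 0.020). The H2ac6 call was lost without library 2 of the WT cells in DIAM or library 2 or 4 of the WT cells in DMEM (edgeR adjusted p = 0.055 to 0.060), and in KO cells H2ac6 was at 2.01 ± 0.37 CPM in DIAM against 1.49 ± 0.24 CPM in DMEM (SD, n = 4 each, edgeR adjusted p = 0.055). Without library 2 of the KO cells in DIAM, library 3 of the KO cells in DMEM or library 1 of the WT cells in DMEM, H2ac6 passed in KO cells too (edgeR adjusted p = 0.036, 0.043 and 0.041). All 31-base words of H2ac18 and of H2ac19 also occur in other genes. Their sum was 28.4 to 33.8 CPM in KO cells in DIAM against 23 to 34.5 CPM in KO cells in DMEM, and 25.3 to 29.7 CPM in WT cells in DIAM against 27.5 to 32.6 CPM in WT cells in DMEM. H2ac19 took 0% of that pair in library 4 of the WT cells in DMEM and 11.1% to 36.6% in the 15 others.

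H2bc4, which carries most of the H2B counts, was at 132, 125, 119 and 118 CPM in the KO libraries in DIAM against 136, 113, 128 and 106 CPM in the KO libraries in DMEM. WT cells had it at 131, 135, 131 and 120 CPM in DIAM against 146, 126, 116 and 120 CPM in DMEM. The log2 fold change was 0.03 ± 0.08 in both genotypes (edgeR adjusted p = 0.76 in KO cells and 0.79 in WT cells). H2bc6 averaged 5.59 ± 0.66 CPM in KO cells in DIAM against 5.17 ± 0.47 CPM in KO cells in DMEM, and 5.77 ± 1.17 CPM in WT cells in DIAM against 5.90 ± 0.31 CPM in WT cells in DMEM (SD, n = 4 each), and it did not pass. H2bc21 was higher in DIAM in WT cells, with 2.08, 2.58, 1.80 and 2.20 CPM in DIAM against 1.64, 1.16, 1.78 and 1.63 CPM in DMEM (log2 fold change 0.48 ± 0.18, edgeR adjusted p = 0.034). This H2bc21 call was lost without library 2 or 4 of the WT cells in DIAM or library 2 of the WT cells in DMEM (edgeR adjusted p = 0.063 to 0.11). It was also lost in a fit of the WT libraries alone (edgeR adjusted p = 0.063) and with quantile normalization (limma adjusted p = 0.064). The authors' deposited table does not list it either (DESeq2 adjusted p = 0.071). H2bc11 was lower in DIAM in KO cells, at 0.654 ± 0.22 CPM against 1.15 ± 0.39 CPM in KO cells in DMEM (SD, n = 4 each, log2 fold change -0.81 ± 0.31 (SE), edgeR adjusted p = 0.033). That call was lost without library 2, 3 or 4 of the KO cells in DIAM or library 1 or 3 of the KO cells in DMEM (edgeR adjusted p = 0.054 to 0.14). H2bc11 reached 1 CPM in 4 DMEM libraries and 1 DIAM library, so that it met the filter through the medium in which it is higher. The call is thus not independent of the filter. In the annotation, 66.7% of the 31-base words of H2bc11 also occur in H2bc24.

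The values of H2bc23 and H2bc24 could depend on how reads were divided between them, which was not tested. In the annotation, 98.3% of the 31-base words of H2bc23 also occur in H2bc24. H2bc24 took 0% to 7.69% of the pair's counts in KO cells in DIAM and 0% to 12.2% in WT cells in DIAM, against 69.4% to 81.1% in WT cells in DMEM. In KO cells in DMEM it took 87.2% in library 1 and 7.78% to 17.9% in the 3 others. Taken alone, H2bc24 had 6 counts over the KO libraries in DIAM against 137 over the KO libraries in DMEM, and 12 over the WT libraries in DIAM against 279 over the WT libraries in DMEM, with fitted log2 fold changes of -4.39 ± 1.00 in KO cells and -4.38 ± 0.86 in WT cells. Without library 1 of the KO cells in DMEM the value in KO cells was -2.80. These values are a description, since H2bc24 passed the filter through DMEM libraries alone. H2bc23 taken alone was at 1.37, 0.853, 1.44 and 1.18 CPM in the WT libraries in DIAM against 0.602, 0.491, 0.466 and 0.421 CPM in the WT libraries in DMEM, a log2 fold change of 1.28 ± 0.38 (edgeR adjusted p = 0.0090). In KO cells it was at 1.14, 1.26, 0.986 and 0.779 CPM in DIAM against 0.393, 1.99, 1.68 and 1.99 CPM in DMEM, with a value of -0.54 ± 0.35 that did not pass (edgeR adjusted p = 0.20). Without library 1 of the KO cells in DMEM the H2bc23 value in KO cells was -0.85 and passed (edgeR adjusted p = 0.0044).

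Counted as 1 gene, an alternative added after the data were seen, the pair was lower in DIAM in both genotypes. The sum was 1.14, 1.29, 1.07 and 0.831 CPM in the KO libraries in DIAM against 3.06, 2.33, 2.05 and 2.16 CPM in the KO libraries in DMEM. In WT cells it was 1.42, 0.971, 1.57 and 1.18 CPM in DIAM against 2.66, 2.22, 1.52 and 2.23 CPM in DMEM, where library 3 in DIAM was just above library 3 in DMEM. For H2bc23 with H2bc24 the log2 fold change was -1.15 in KO cells and -0.75 in WT cells (edgeR adjusted p = 2.6e-04 and 0.0074). The rise of H2bc23 in WT cells was thus turned round when both genes were summed.

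**Figure D5:**
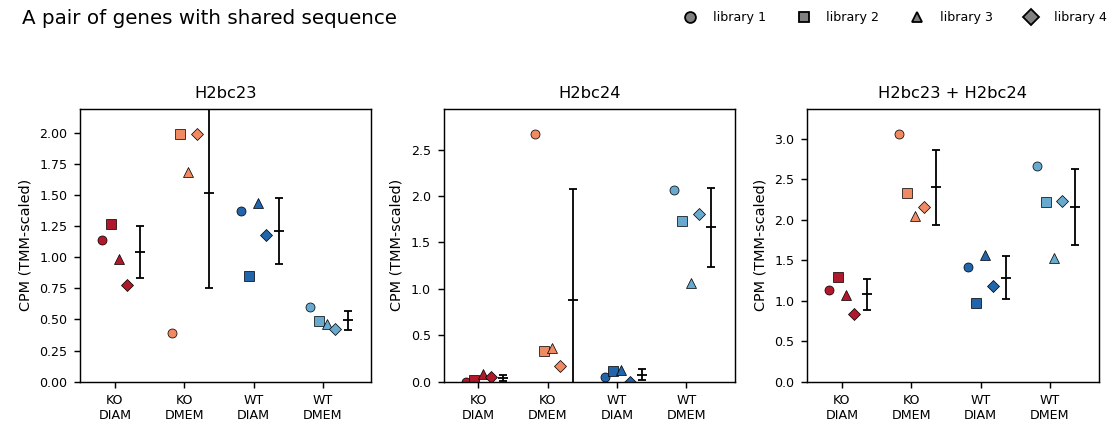
CPM of H2bc23, of H2bc24 and of their sum in each library by group. Symbols mark the library number, and bars give the mean and SD of 4 libraries, cut at 0. The counts sit mostly in H2bc24 in WT cells in DMEM and in library 1 of the KO cells in DMEM, and mostly in H2bc23 elsewhere, while the sum is lower in DIAM.

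The H3 and H4 genes of the class gave few changes. H3c2, which passed the filter through DIAM libraries alone, is described without a test. It was at 1.19, 1.12, 1.29 and 1.20 CPM in the KO libraries in DIAM against 0.707, 0.543, 0.440 and 0.359 CPM in the KO libraries in DMEM. The WT libraries gave 1.12, 0.805, 1.16 and 0.965 CPM in DIAM against 0.903, 0.517, 0.423 and 0.643 CPM in DMEM. The log2 fold change was 1.22 ± 0.26 in KO cells, with no overlap, and 0.70 ± 0.25 in WT cells, with overlap. H3c2 had 15 to 27 counts per library in KO cells in DMEM, and 61.9% of its 31-base words also occur in other genes. H3c15, the most abundant H3 gene of the class, averaged 10.9 ± 0.70 CPM in KO cells in DIAM against 9.80 ± 1.57 CPM in KO cells in DMEM, and 10.7 ± 0.92 CPM in WT cells in DIAM against 10.6 ± 1.20 CPM in WT cells in DMEM (SD, n = 4 each), and did not pass. H3c4 was lower in DIAM in KO cells, at 0.997 ± 0.066 CPM against 1.57 ± 0.23 CPM in KO cells in DMEM (SD, n = 4 each, log2 fold change -0.65 ± 0.17 (SE), edgeR adjusted p = 0.0030). In WT cells H3c4 was at 1.09 ± 0.043 CPM in DIAM against 1.38 ± 0.22 CPM in DMEM (SD, n = 4 each) and passed when library 4 of the WT cells in DMEM was left out (edgeR adjusted p = 0.045).

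H4c8 was higher in DIAM in KO cells, at 6.34, 6.10, 5.20 and 4.88 CPM in DIAM against 5.00, 3.21, 4.27 and 3.50 CPM in DMEM. The groups overlapped by library 1 of the KO cells in DMEM, and the log2 fold change was 0.50 ± 0.17 (edgeR adjusted p = 0.017). The H4c8 call was lost without library 1 of the KO cells in DIAM or library 2 or 4 of the KO cells in DMEM (edgeR adjusted p = 0.050 to 0.055). In the annotation, 50% of the 31-base words of H4c8 also occur in other genes, so that its reads could have been divided. H4c17 was lower in DIAM in WT cells, at 2.76, 1.94, 3.36 and 2.57 CPM in DIAM against 3.73, 3.98, 3.73 and 4.28 CPM in DMEM (log2 fold change -0.56 ± 0.22, edgeR adjusted p = 0.044). That H4c17 call was lost without any one of the WT libraries in DMEM, without library 1, 2 or 4 of the WT cells in DIAM or without library 2 of the KO cells in DIAM (edgeR adjusted p = 0.051 to 0.13). H4c17 shares 91.7% of its 31-base words with H4c18, and their sum in WT cells gave -0.53 (edgeR adjusted p = 0.058). H4c9 averaged 4.00 ± 0.38 CPM in KO cells in DIAM against 4.89 ± 0.82 CPM in KO cells in DMEM, and 4.58 ± 0.95 CPM in WT cells in DIAM against 5.26 ± 0.84 CPM in WT cells in DMEM (SD, n = 4 each), and did not pass.

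By family, the replication-dependent sums overlapped between media except for H2A in WT cells. The H2A sum was 40.5 to 43.6 CPM in WT cells in DIAM against 44.3 to 50.2 CPM in WT cells in DMEM, and 39.4 to 46.8 CPM in KO cells in DIAM against 37.9 to 50.8 CPM in KO cells in DMEM. The H1 sum was 234 to 282 CPM in KO cells in DIAM against 227 to 267 CPM in KO cells in DMEM, and 262 to 300.2 CPM in WT cells in DIAM against 246 to 286 CPM in WT cells in DMEM. The H3 sum was 12.8 to 14.3 CPM in KO cells in DIAM against 10.3 to 14.6 CPM in KO cells in DMEM, and 12.2 to 14.8 CPM in WT cells in DIAM against 11.3 to 14.5 CPM in WT cells in DMEM. The H4 sum was 13.2 to 16.9 CPM in KO cells in DIAM against 11.7 to 17.8 CPM in KO cells in DMEM, and 13.4 to 16.7 CPM in WT cells in DIAM against 15.3 to 17.8 CPM in WT cells in DMEM. The H2B sum was 128 to 144 CPM in KO cells in DIAM against 117 to 150.02 CPM in KO cells in DMEM, and 132 to 146 CPM in WT cells in DIAM against 128 to 161 CPM in WT cells in DMEM. H1 and H2B transcripts, from H1f2 and H2bc4 above all, thus made up most of the class, and H3 and H4 transcripts little of it.

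The comparison of genotypes gave calls among histone genes in DIAM alone. In that medium the summed fibroblast markers were at 3044 to 4802 CPM in KO cells against 4892 to 7699 CPM in WT cells, with no overlap and 1 of 6 called (Col1a1, lower in KO cells). The summed Schwann cell markers were at 11.7 to 42.3 CPM in KO cells against 67.2 to 167 CPM in WT cells, with no overlap and 0 of 3 called. The adipocyte sum was 1954 to 2910 CPM in KO cells against 1341 to 2089 CPM in WT cells, with 1 of 5 called, and the part of these markers in the histone values was not tested. Of the histone genes in DIAM, 2 of 9 replacement variants were called, both lower in KO cells, and 0 of 21 replication-dependent genes, against 8.38% of all genes (3.43% higher and 4.95% lower in KO cells). H2az1 was at 55.9 to 59.2 CPM in KO cells in DIAM against 62.8 to 83.5 CPM in WT cells in DIAM, with no overlap and a log2 fold change of -0.29 ± 0.08 (edgeR adjusted p = 0.040). H3f3b was at 194 to 239 CPM in KO cells in DIAM against 230 to 257 CPM in WT cells in DIAM, with overlap through library 4 of the KO cells and a log2 fold change of -0.24 ± 0.06 (edgeR adjusted p = 0.034). Both calls depended on single libraries. The H3f3b call was lost without library 1, 2 or 3 of the KO cells in DIAM or library 1, 2 or 4 of the WT cells in DIAM (log2 fold change -0.26 to -0.21, edgeR adjusted p = 0.058 to 0.11). The H2az1 call was lost without any one of the KO libraries in DIAM, without library 1 or 2 of the WT cells in DIAM, and without library 1 of the KO cells or library 2 of the WT cells in DMEM (log2 fold change -0.31 to -0.20, edgeR adjusted p = 0.054 to 0.17). Neither passed in a fit of the KO and WT libraries in DIAM alone (edgeR adjusted p = 0.097 for H3f3b and 0.077 for H2az1). H1f10 was also apart between genotypes in DIAM, at 1.16 to 1.41 CPM in KO cells against 1.61 to 1.88 CPM in WT cells, but did not pass (log2 fold change -0.39 ± 0.14, edgeR adjusted p = 0.10). Genotypes were apart in DIAM for 2 of 9 replacement variants and 0 of 21 replication-dependent genes, beside 16.4% of all genes. The count over all genes was 1191, but it was 275 without library 1 and 178 without library 2 of the KO cells, and 299 without library 1 and 316 without library 2 of the WT cells in DIAM. In the fit of the DIAM libraries alone it was 0. These limits hold for each call between genotypes in DIAM given here. H2ac25, which is in the replication-dependent class, was at 9.17 ± 0.89 CPM in KO cells in DIAM against 10.9 ± 1.31 CPM in WT cells in DIAM (SD, n = 4 each, edgeR adjusted p = 0.082). It passed without library 4 of the KO cells or library 3 of the WT cells in DIAM (edgeR adjusted p = 0.041 and 0.0498).

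In DMEM, 0 of the 30 histone genes tested differed between KO and WT cells, as did 0% of all genes, and 438 genes had an unadjusted p under 0.05 (edgeR). For the interaction of genotype and medium the count was also 0 of 30, against 0% of all genes, with 2255 at an unadjusted p under 0.05 (edgeR). DESeq2 called 0 histone genes in either, with 1 and 225 genes over the whole table. The authors' deposited table lists H2bc23 in the interaction, with a log2 value of -1.81 and an adjusted p of 0.048, and lists H3f3b and H2az1 in DIAM with adjusted p of 0.048 and 0.024. H2bc23 had the largest genotype difference of the class in DMEM, 1.51 ± 0.76 CPM in KO cells against 0.495 ± 0.077 CPM in WT cells (SD, n = 4 each, log2 fold change 1.61 ± 0.38 (SE), edgeR adjusted p = 1.0), and was called without library 1 of the KO cells in DMEM (1.93, edgeR adjusted p = 0.0095). Summed with H2bc24, H2bc23 gave a log2 fold change of 0.15 in DMEM and -0.40 for the interaction (edgeR adjusted p = 1.0 and 0.54).

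Genes that make, process and place histones were read beside the histone genes. Of 15 tested genes for the transcription of replication-dependent histone genes and the processing of their 3′ ends, 6 were higher and 2 lower in DIAM in KO cells (median log2 fold change 0.07), and 3 were higher and 0 lower in WT cells (median 0.05). These are 53.3% of the list beside 60.7% of all genes in KO cells, and 20% beside 55.1% in WT cells. Mif4gd, which encodes a translation factor that binds SLBP, was at 25.8 ± 2.22 CPM in KO cells in DIAM against 14.7 ± 0.37 CPM in KO cells in DMEM, and at 22.7 ± 0.84 CPM in WT cells in DIAM against 14.7 ± 0.93 CPM in WT cells in DMEM (SD, n = 4 each), with log2 fold changes of 0.81 ± 0.07 and 0.63 ± 0.07 (SE, edgeR adjusted p = 3.1e-08 and 6.9e-07). Ncbp1, a cap-binding protein gene, was higher in DIAM by 0.30 ± 0.05 in KO cells and 0.20 ± 0.05 in WT cells. Sympk, which encodes a scaffold of the cleavage complex, passed in KO cells (0.16 ± 0.05, edgeR adjusted p = 0.0071), as did the histone H4 transcription factor gene Hinfp, which was lower (-0.46 ± 0.17, edgeR adjusted p = 0.026). Cpsf2, a member of that cleavage complex, was higher in WT cells (0.15 ± 0.04, edgeR adjusted p = 0.0056), where Cstf2, which encodes a cleavage stimulation subunit, did not pass (0.18 ± 0.08, edgeR adjusted p = 0.058). Slbp itself was at 21.2 CPM in KO cells in DIAM against 20.1 CPM in KO cells in DMEM, and at 21.1 CPM in WT cells in DIAM against 20.2 CPM in WT cells in DMEM, and did not pass in either (edgeR adjusted p = 0.39 and 0.48). Npat, the coactivator of the clusters, did not pass either (log2 fold change -0.05 in both genotypes, edgeR adjusted p = 0.57 and 0.61). Zfp473 was below the filter.

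Of 19 histone chaperone genes, 4 were higher and 8 lower in DIAM in KO cells (median log2 fold change -0.09), and 2 were higher and 4 lower in WT cells (median -0.01). The shares, 63.2% beside 60.7% of all genes in KO cells and 31.6% beside 55.1% in WT cells, were near or below those of all genes. Chaf1a, the large subunit of CAF-1, was at 7.21 ± 0.21 CPM in KO cells in DIAM against 11.4 ± 0.59 CPM in KO cells in DMEM (SD, n = 4 each, log2 fold change -0.67 ± 0.12 (SE), edgeR adjusted p = 1.5e-04). Mcm2, which is both a helicase subunit and a histone binder, changed by -0.58 ± 0.07 in KO cells and -0.39 ± 0.07 in WT cells. Npm1, which encodes the nucleolar chaperone nucleophosmin, changed by -0.55 ± 0.07 in KO cells and -0.40 ± 0.07 in WT cells, and Hjurp, the CENP-A chaperone, by -0.43 ± 0.08 in KO cells. Anp32e, which encodes a chaperone that removes H2A.Z, was higher in WT cells, at 74.7 ± 4.57 CPM in DIAM against 52.0 ± 1.63 CPM in DMEM (SD, n = 4 each, log2 fold change 0.52 ± 0.07 (SE), edgeR adjusted p = 8.7e-06), and Daxx, the H3.3 chaperone gene, was higher in both (0.30 in each). Between genotypes in DIAM, 0 of these genes were higher and 3 were lower in KO cells, namely Chaf1a (-0.64), Anp32e (-0.34) and Mcm2 (-0.27), or 15.8% beside 4.95% of all genes lower. None of them was called in a fit of the DIAM libraries alone.

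S-phase genes were mostly lower in DIAM. Of 22 listed and tested, 2 were higher and 19 lower in DIAM in KO cells (median log2 fold change -0.54), and 2 were higher and 12 lower in WT cells (median -0.31). The lower ones are 86.4% of the list in KO cells and 54.5% in WT cells, beside 30.8% and 27.5% of all genes. Ccna2, the S-phase cyclin gene, was at 3.99 ± 0.50 CPM in KO cells in DIAM against 12.7 ± 1.87 CPM in KO cells in DMEM, and at 6.78 ± 1.31 CPM in WT cells in DIAM against 14.0 ± 1.37 CPM in WT cells in DMEM (SD, n = 4 each), with log2 fold changes of -1.67 ± 0.15 and -1.04 ± 0.14 (SE, edgeR adjusted p = 6.8e-08 and 1.2e-05). Mcm5, a subunit of the replicative helicase, changed by -1.08 ± 0.12 in KO cells and -0.73 ± 0.11 in WT cells, Ccne1 by -1.01 ± 0.11 and -0.70 ± 0.11, and Gins2 by -1.38 ± 0.14 and -0.72 ± 0.14. The genes that were higher in both genotypes were Rrm1 and Rrm2, the subunits of ribonucleotide reductase, with Rrm2 at 63.6 ± 10.3 CPM in WT cells in DIAM against 28.9 ± 1.81 CPM in WT cells in DMEM (SD, n = 4 each). In DIAM, 9 of the 22 (40.9%) were lower in KO than in WT cells and 0 higher (median -0.27), beside 4.95% of all genes lower. A fit of the DIAM libraries alone called 0 of all genes, and so none of these. Beside these, the replication-dependent medians were 0.03 in KO cells and 0.01 in WT cells. No test was made of the difference between the lists.

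Of 8 other histone genes listed outside the rule, 2 were tested, and both were lower in DIAM. Over all genes, 30.8% were lower in DIAM in KO cells and 27.5% in WT cells, and 2 genes are too few for a share. Cenpa, the centromeric H3 variant gene, was at 1.65 ± 0.28 CPM in KO cells in DIAM against 8.14 ± 0.85 CPM in KO cells in DMEM, and at 3.31 ± 1.27 CPM in WT cells in DIAM against 8.95 ± 0.97 CPM in WT cells in DMEM (SD, n = 4 each), with log2 fold changes of -2.30 ± 0.22 and -1.43 ± 0.20 (SE, edgeR adjusted p = 1.5e-07 and 2.0e-05). It was also lower in KO than in WT cells in DIAM (-1.0, edgeR adjusted p = 0.016), but was not called in a fit of the DIAM libraries alone. H2aj, a replacement H2A gene, changed by -0.34 ± 0.11 in KO cells and -0.41 ± 0.11 in WT cells.

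As a reading of how RNAs that lack a poly(A) tail behaved in these libraries, 12 non-coding RNAs were listed, including the longer comparators Malat1, Neat1 and Snhg1. Of the 7 tested, 0 were higher and 2 lower in DIAM in KO cells, and 0 were higher and 4 lower in WT cells (median log2 fold change -0.44 and -0.80). These are 28.6% of the list beside 60.7% of all genes in KO cells and 57.1% beside 55.1% in WT cells. Without the comparators, 1 of 4 was lower in KO cells and 4 of 4 in WT cells. Rn7s1, a signal recognition particle RNA, was at 18.8 CPM in KO cells in DIAM against 29.2 CPM in KO cells in DMEM, and at 18.8 CPM in WT cells in DIAM against 37.6 CPM in WT cells in DMEM (edgeR adjusted p = 0.030 and 0.0023). Rn7sk, the RNA of the 7SK particle, was at 5.26 CPM in KO cells in DIAM against 6.38 CPM in KO cells in DMEM, and at 4.36 CPM in WT cells in DIAM against 7.62 CPM in WT cells in DMEM (edgeR adjusted p = 0.24 and 0.0026). Rmrp, at 0.993 CPM in DIAM against 2.18 CPM in DMEM, and Rpph1, at 0.975 CPM in DIAM against 1.73 CPM in DMEM, were also lower in WT cells (edgeR adjusted p = 0.013 and 0.016), and Neat1 was lower in KO cells (edgeR adjusted p = 0.0063). The part of RNA recovery in the histone values was not tested.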

How the data were processed

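RNA from 16 libraries (4 groups of 4) was measured by RNA-seq. The authors quantified reads with Salmon 1.9.0 and made their comparisons with DESeq2 1.46.0 in R 4.4.2, on mouse build GRCm39, per the submitters' processing notes. Per the labels, libraries were made with an unstranded TruSeq mRNA kit and rRNA depletion, and every library carries batch label 1. The labels call the deposited values TPM, but the columns have unequal totals of 37221192 to 47626331, so they were read as estimated counts. The deposited table of the authors also gives log2 fold changes, adjusted p-values and a mean signal per gene. These were copied and used only where named.

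The estimated counts were rounded and tested with edgeR 4.0.16 (R 4.3.3, quasi-likelihood test, TMM, 4 groups in 1 model) over 14217 of 20581 genes, those with at least 1 CPM in at least 4 libraries, with Benjamini-Hochberg adjustment over all of them and a threshold of 0.05. The interaction is the DIAM effect in KO minus that in WT cells. Errors are SD over libraries or SE of the log2 fold change. The steps were run on simulated counts with a fixed spread and a small set of changed genes. That setting does not cover shared reads or the large share of genes that differ between media here. Histone transcripts came from GENCODE vM21 (GRCm38). Named genes were the 12 replication-dependent genes of highest mean level, each tested replacement variant, genes called between genotypes, the 3 largest rises and falls per medium comparison, and 4 genes per pathway list and medium comparison by smallest p. Other histone genes called between media were added. The members and lists were chosen with earlier results of these data known. Alternatives were DESeq2 1.42.0, limma 3.58.1, other filters and normalizations, 2-group fits, a replicate block and leaving out each library. Counting error limits the values of low genes, and the division of reads between near-identical genes, which was not tested, could limit them too.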

Additional observations from a re-analysis of the deposited data

Results flagged for a closer look

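Single libraries stood apart from the other 3 of their group in 12 of 188 groups of values examined, judged by the gap to the nearest library as a share of the group's range. Chance gives about 1 in 20, or 9.4 here. For H3f3b, library 4 of the KO cells in DIAM was at 239 CPM beside 194 to 199, and library 1 of the KO cells in DMEM at 233 CPM beside 227 to 228. The summed replacement H3 genes were at 445 CPM in the same library 4 of the KO cells in DIAM, beside 392 to 400. Macroh2a2 was at 7.85 CPM in library 4 of the WT cells in DIAM beside 6.87 to 7.01, and H2ac25 at 14.5 CPM in library 4 of the WT cells in DMEM beside 13.9 in each of the others.

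H2bc24 was at 2.67 CPM in library 1 of the KO cells in DMEM beside 0.168 to 0.366, the library in which H2bc23 was low. H2bc21 was at 1.86 CPM in that library beside 1.44 to 1.5. H4c18 was high in library 1 of the KO cells in DIAM (1.66 CPM beside 0.632 to 0.767) and in library 1 of the WT cells in DIAM (1.42 CPM beside 0.75 to 0.853), and low in library 4 of the KO cells in DMEM (0.551 CPM beside 1.76 to 1.93). Its log2 fold change in KO cells was -0.73 (edgeR adjusted p = 0.11), and it passed without library 1 of the KO cells in DIAM (-1.17, edgeR adjusted p = 0.014) or library 4 of the KO cells in DMEM (-1.01, edgeR adjusted p = 0.014). H4c18 reached 1 CPM in 7 DMEM libraries and 2 DIAM libraries, so that it met the filter mostly through DMEM. The summed replication-dependent H2B genes were at 132 CPM in library 4 of the WT cells in DIAM beside 144 to 146. The 23 replication-dependent genes below the filter summed to 5.8 CPM in library 1 of the WT cells in DIAM beside 5.07 to 5.16.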

How the results depend on the processing

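Replication-dependent genes called in KO cells between media numbered 10 with no filter and 2 with a filter at 5 CPM, where WT cells gave 1. The filter also sets how many genes of the class were tested, so these counts have different totals behind them. At a log2 fold change of at least 1 there were 2 replication-dependent and 2 replacement genes in KO cells (2432 of all genes), 2 and 1 in WT cells (2140), and 0 replacement genes between genotypes in DIAM (167). The replication-dependent ones were H3c2 and H2bc24 in KO cells and H2bc23 and H2bc24 in WT cells. Of these, H3c2 and H2bc24 entered through the medium in which they are high, and H2bc23 was reversed in the sum with H2bc24. These counts are thus no result about the class. Fitting only the groups compared gave 0 replacement genes and 0 genes in all between genotypes in DIAM, where DESeq2 gave 1873 genes and the authors' deposited table lists 1810. For genotype in DMEM, DESeq2 gave 1 gene and the authors' deposited table lists 2. Between media in WT cells that table lists 5 replication-dependent genes, 2 higher and 3 lower, without H2bc21 and H3c2. For the interaction DESeq2 gave 225, limma with a pseudocount of 5 gave 1, and the authors' deposited table lists 234, of which 1 was replication-dependent. Summing H2bc23 with H2bc24 turned H2bc23 in WT cells to -0.75. Leaving out 1 library gave 3 to 7 replication-dependent genes in WT cells, 0 to 1 between genotypes in DIAM and 0 to 1 in DMEM, 0 to 2 replacement genes between genotypes in DIAM, and over all genes 178 to 1480 in DIAM, 0 to 2 in DMEM and 0 to 1 for the interaction. The causes were not tested, beyond fewer genes or samples. With a replicate block, 8 replication-dependent and 8 replacement genes were called in KO cells (8800 of all genes) and 7 and 4 in WT cells (8047). The block called H3f3b, H2ac6 and H4c18 in KO cells and H2bc11 in WT cells, and lost H2bc21 in WT cells. Same-numbered libraries correlated between media at 0.012 to 0.319 in KO cells and at -0.094 to 0.267 in WT cells, over 0.1 in 6 of 8 pairs, and 5 of 8 libraries correlated best with their own number. The numbers were not taken as pairs, since not every pair exceeded 0.1 and the labels tie no number to a shared source. This does not show that no libraries were paired. The block joined KO and WT libraries of the same number, so it does not test pairing between media within a genotype. Same-numbered KO and WT libraries correlated at -0.203 to -0.041 in DIAM and at -0.216 to 0.174 in DMEM. Depth limits genes near 1 CPM.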
